A study of Mus musculus with 13 samples.

Results

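The p53 target genes of mouse embryonic stem (ES) cells treated with the G-quadruplex (G4) ligand PhenDC3 are described here by function. The members are Trp53, which encodes p53, and genes commonly listed as its targets, 35 symbols in all. Each symbol was looked up in the raw RNA-seq count table, and all 35 were among its 24079 genes. They were sorted into 7 genes of p53 and its feedback, 7 of cell cycle arrest and growth, 11 of apoptosis, 5 of DNA repair and nucleotide supply, and 5 of metabolism and other roles.

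The cells were of the CGR8 line, mouse ES cells grown without feeders on gelatin in serum and LIF. Both conditions contained 0.5% DMSO for 48 h, alone in the control and with 10 µM PhenDC3 in the treated cultures. RNA-seq covered 3 replicates of each condition, and short nascent strands, the RNA-primed DNA made where replication starts, were sequenced (SNS-seq) in 3 control and 2 PhenDC3 replicates. A single line carried both conditions, and the labels do not say whether the RNA-seq replicates were separate cultures, so p-values measure the spread between these samples, which may be technical.

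The p53 protein is a transcription factor that binds paired 10-base DNA sites near its target genes and raises their transcription after DNA damage and other stresses. Mdm2, itself a target, encodes the ubiquitin ligase that marks p53 for degradation and thereby closes a negative feedback loop. Other targets halt the cell cycle, start apoptosis, repair DNA or adjust metabolism, and in mouse ES cells p53 is abundant even without stress.

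The RNA-seq libraries held between 22232014 and 29486502 counts. The ribosomal RNA precursor Rn45s took 2.55% to 5.70% of the counts of control libraries and 0.172% to 1.43% of those of PhenDC3 libraries, and the calls of the p53 targets below were also made without it and without Lars2, whose share was also lower in each PhenDC3 library (0.114% to 0.403% against 0.750% to 0.996%). All 8 ES cell markers looked up were expressed, with a summed level of 7134 to 8090 CPM (counts-per-million on normalised library sizes) in control and 8207 to 9600 CPM in PhenDC3 samples. They moved both ways, Nanog, Klf4 and Dppa5a being higher and Pou5f1 and Tdgf1 lower (log2 fold changes of 1.22, 0.82, 0.56, -0.45 and -0.67). For OCT4, which Pou5f1 encodes, the paper reports no change of expression with PhenDC3, while the values here are of mRNA. Of 15 markers of other cell types, 10 passed the filter on low counts and their 15-gene sum was 30.0 to 45.0 CPM in control against 53.2 to 62.4 CPM in PhenDC3 samples. Within that list the endoderm genes Sox17, Gata4, Gata6 and Foxa2 rose, and the neuroectoderm gene Pax6 and the fibroblast marker Thy1 fell. Sox1, also of neuroectoderm, was not called (log2 fold change 0.63). Of the other fibroblast markers, Col1a1 and Col1a2 were not called (0.68 and 1.64), Col3a1 did not pass the filter, and Dcn was at 0 in all 6 libraries. The part of these shifts in the changes below was not tested. In bulk RNA, more or fewer cells expressing a gene and more or less RNA per cell cannot be told apart.

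More of the p53 target genes, counted here with Trp53 itself, rose than fell with PhenDC3. Calls were made by edgeR's quasi-likelihood test (Benjamini-Hochberg adjusted p of at most 0.05), and 34 of the 35 members passed the filter on low counts. Of these 34, 17 rose, 3 fell (Trp53, Gadd45a and Pmaip1) and 14 did not pass the threshold. Among all 13972 genes tested 36.8% changed, 18.0% rising and 18.7% falling. The median log2 fold change of PhenDC3 over control was 0.44 for the p53 targets and 0.01 for all genes. Changes of members ran from -0.60 for Gadd45a to 2.14 for Trp53inp1, and 26 of the 34 were above 0. All 3 PhenDC3 samples lay above all 3 control samples for 19 members, against 25.0% of all genes, and below them for 4 members, against 25.6% of all genes. Summed over the 35 genes, the level was 2681 to 2848 CPM in control and 4195 to 4474 CPM in PhenDC3 samples. Without Rn45s and Lars2 the counts were again 17 higher and 3 lower, with a median of 0.44.

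**Figure D1:**
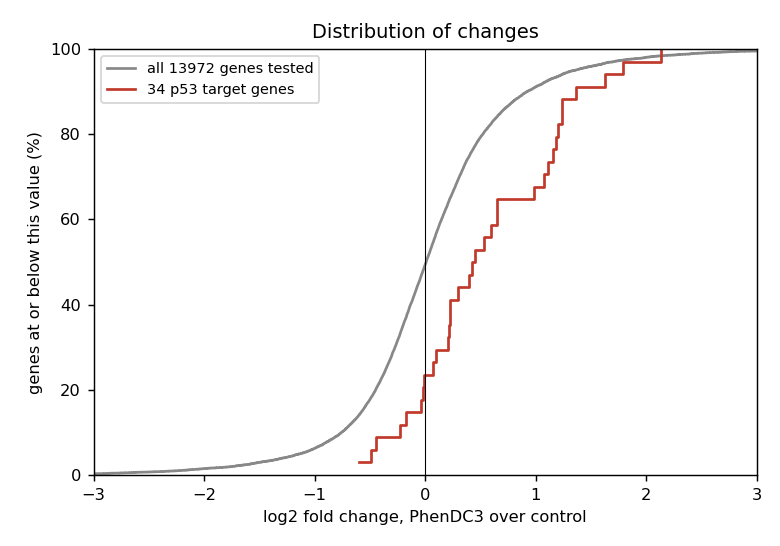
Cumulative share of genes (%) against their log2 fold change of PhenDC3 over control, for the 34 p53 target genes tested (red steps) and all 13972 genes tested (grey line). The red steps lie to the right of the grey line over most of the range, with medians of 0.44 and 0.01.

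Members rose in each of the functions, from 5 of 7 arrest genes to 1 of 5 metabolic and other genes, the latter near the 18.0% of all genes that rose. Feedback genes had 4 of 7 higher and 1 lower, with a median log2 fold change of 1.12, and arrest genes 5 of 7 higher and 1 lower, with a median of 0.65. Among apoptosis genes 5 of the 10 tested were higher and 1 lower, and the median was 0.34. Repair genes had 2 of 5 higher and none lower (median 0.43), and metabolic and other genes 1 of 5 higher and none lower (median 0.30). With 5 to 10 genes tested in a function, the order of these medians is a description, and the difference between functions was not tested. Feedback, arrest and apoptosis each held genes called in opposite directions.

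**Figure D2:**
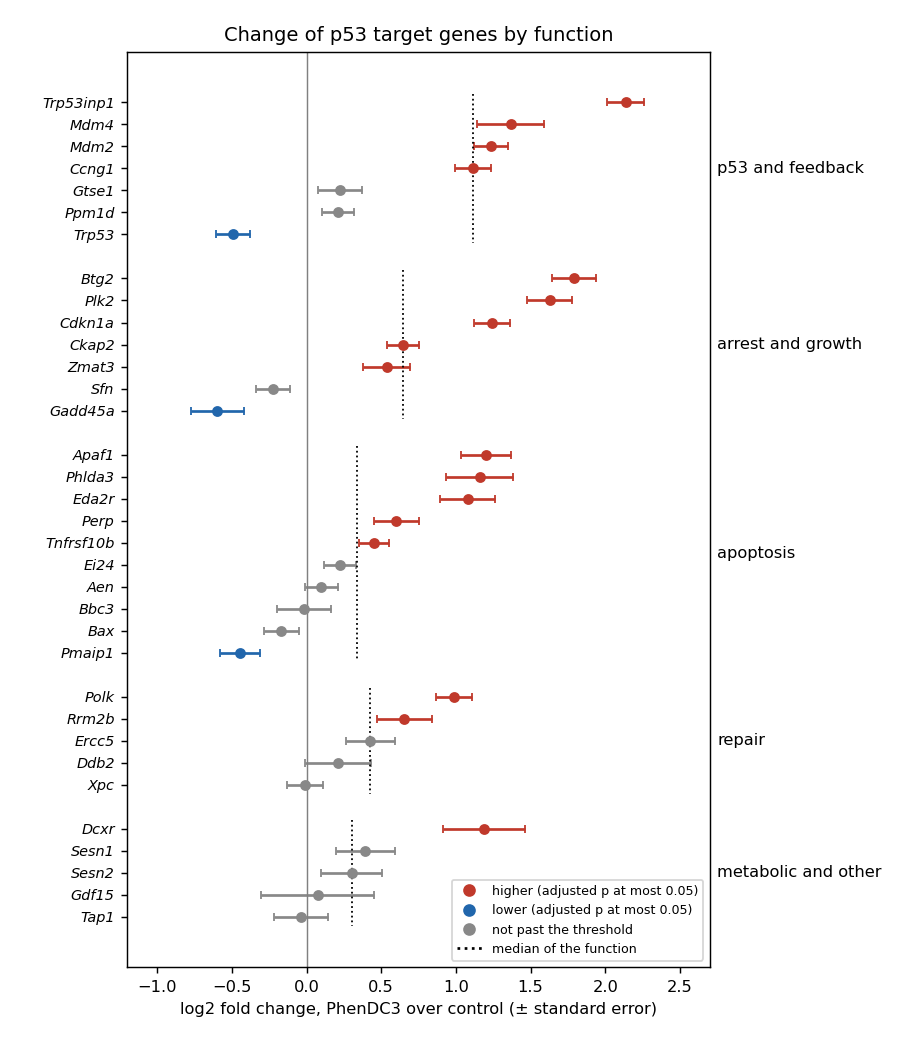
Log2 fold change of PhenDC3 over control for each of the 34 p53 target genes tested, with its standard error, grouped by function and coloured by call (red higher, blue lower, grey not past the threshold). Dotted lines give the median of each function, from 1.12 for feedback genes to 0.30 for metabolic and other genes.

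To place these changes beside DNA sequence, the mm10 genome was searched within 2 kb of each RefSeq transcription start site (TSS) for p53 response elements. An element was taken as a pair of 10-base sites on the gene's strand, separated by at most 1 base. Each site has purines at positions 1 to 3, C at position 4, A or T at positions 5 and 6, G at position 7 and pyrimidines at positions 8 to 10, and the pair was allowed at most 2 mismatches in all, none of them at the C or the G. At least 1 such element was found for 13 of the 35 members (37.1%) and for 10.2% of 23937 genes with a TSS. With at most 1 mismatch the shares were 17.1% (6 members) and 1.82%, and with no mismatch 5.71% (2 members) and 0.192%. A match is a description of the letters and does not show binding. The members were listed as p53 targets beforehand, so their larger share cannot be read as a result of these data.

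The elements with the fewest mismatches of the members that rose are shown here, with 10 bases on each side, because they allow the sequence to be set beside the size of each change. Capitals mark the bases of the element that match the pattern, and small letters mark flanks, spacers and mismatches.
Trp53inp1: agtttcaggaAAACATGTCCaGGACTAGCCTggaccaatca
Zmat3: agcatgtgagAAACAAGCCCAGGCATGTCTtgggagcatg
Ccng1, intronic: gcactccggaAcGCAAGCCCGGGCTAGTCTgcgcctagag
Ccng1, upstream: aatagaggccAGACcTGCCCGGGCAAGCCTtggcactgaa
Cdkn1a: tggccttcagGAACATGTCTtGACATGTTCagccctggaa
Ckap2: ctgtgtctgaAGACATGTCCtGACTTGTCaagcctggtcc
Eda2r: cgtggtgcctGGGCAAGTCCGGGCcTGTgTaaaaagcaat
Plk2: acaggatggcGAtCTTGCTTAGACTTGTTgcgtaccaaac
Of the 4 tested members with an element that did not pass the threshold, Gdf15 (1 mismatch) and Tap1 (2 mismatches) are not shown. For comparison, the elements with the fewest mismatches of the others, Gtse1 and Bax, are these.
Gtse1: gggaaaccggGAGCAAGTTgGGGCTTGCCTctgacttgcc
Gtse1, overlapping it: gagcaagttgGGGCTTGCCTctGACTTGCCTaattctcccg
Bax, intronic: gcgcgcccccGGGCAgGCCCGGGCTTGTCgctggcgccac
Bax, upstream: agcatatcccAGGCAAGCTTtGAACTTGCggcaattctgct

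The only elements without a mismatch belonged to Trp53inp1, at chr4:11155112-11155132 on the plus strand and 1319 bp upstream of the TSS, and to Zmat3, at chr3:32364331-32364350 on the minus strand in an intron 1324 bp downstream. Trp53inp1 had the largest rise of the members and Zmat3 the smallest of those 7 genes that rose with an element. Cdkn1a held its element (1 mismatch) at chr17:29090928-29090947 on the plus strand, 42 bp upstream of its nearest TSS. Ccng1 held a pair of elements on the minus strand with 1 mismatch each, at chr11:40754936-40754955 in an intron and at chr11:40755462-40755481 upstream of the gene. The overlapping elements of Gtse1 lay in an exon, at chr15:85859945-85859964 and chr15:85859955-85859975 on the plus strand. Those of Bax, on the minus strand, lay in an intron at chr7:45466574-45466593 and 191 bp upstream of the TSS at chr7:45467079-45467099. Of the 12 tested members with an element, 7 rose, 1 fell and 4 did not pass the threshold (median log2 fold change 0.59), and of the 22 without one 10 rose, 2 fell and 10 did not pass it (median 0.41). The difference between these sets was not tested.

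Among the feedback genes, Trp53inp1, whose product binds p53 and promotes its phosphorylation and cell death, changed most. It lies at chr4:11156441-11174379 on the plus strand. Its level was 204, 171 and 169 CPM in control and 801, 733 and 854 CPM in PhenDC3 samples, a mean of 181 ± 19.5 against 796 ± 60.6 (SD, n = 3). Each PhenDC3 sample was far above each control sample. The log2 fold change was 2.14 (SE 0.13, 4.39-fold, adjusted p = 5.00e-05), which ranked 219 among the rises of all 13972 genes. Per kb of exon, its level went from 33.3 to 147 CPM.

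Mdm2 and Mdm4, the pair of p53 inhibitors, rose together. Mdm2, the ubiquitin ligase, lies at chr10:117688875-117710758 on the minus strand and was at 117, 116 and 103 CPM in control and 271, 279 and 240 CPM in PhenDC3 samples. Its control replicates were close together and its PhenDC3 replicates all clearly higher. The log2 fold change of Mdm2 was 1.24 (SE 0.11, 2.36-fold, adjusted p = 0.000141). Mdm4, which binds p53 and blocks its activation domain, lies at chr1:132986105-133030587 on the minus strand, with 109, 75.8 and 112 CPM in control and 244, 186 and 335 CPM in PhenDC3 samples. Its PhenDC3 replicates were spread more widely (SD 74.8 against 20.1) but did not overlap the control. The change of Mdm4 was 1.37 (SE 0.23, 2.58-fold, adjusted p = 0.00204).

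Ccng1, which encodes cyclin G1, a partner of the phosphatase PP2A that acts on Mdm2, lies at chr11:40748552-40755286 on the minus strand. Its level was 238, 240 and 197 CPM in control and 514, 492 and 458 CPM in PhenDC3 samples, with no overlap (log2 fold change 1.12, SE 0.12, adjusted p = 0.000249). Per kb of exon it was the most expressed of the 4 feedback genes that rose, at 64.5 CPM in control. Ppm1d (Wip1 phosphatase, which dephosphorylates p53 and its kinases) had a log2 fold change of 0.21 (SE 0.11, adjusted p = 0.156), with all PhenDC3 samples slightly above the control. Gtse1, which binds p53 in G2 phase, had 0.22 (SE 0.15, adjusted p = 0.266) and its groups overlapped. Neither passed the threshold.

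Trp53 itself fell while 4 of its feedback genes rose. At chr11:69580359-69591873 on the plus strand, it was at 434, 461 and 505 CPM in control and 357, 304 and 334 CPM in PhenDC3 samples. The lowest control sample was above the highest PhenDC3 sample. Its log2 fold change was -0.49 (SE 0.11, adjusted p = 0.0100), a level 1.41-fold lower. At 250 CPM per kb of exon in control and 178 in PhenDC3 samples, Trp53 was the most expressed of the members per length in control and came after Bax in PhenDC3 samples. These are mRNA levels, and the amount of p53 protein was not measured.

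Of the arrest genes, Btg2, an antiproliferative gene that recruits the mRNA deadenylation machinery, rose most. At chr1:134074865-134079155 on the minus strand, its level was 48.3, 36.7 and 52.5 CPM in control and 158, 147 and 171 CPM in PhenDC3 samples, a mean of 45.9 ± 8.20 against 159 ± 12.0 (SD, n = 3). The change of 1.79 on the log2 scale (SE 0.15, 3.46-fold, adjusted p = 9.40e-05) was the next largest of the members after Trp53inp1. Plk2, a polo-like kinase that acts in centriole duplication and the stress response, was at 23.1, 25.6 and 31.3 CPM in control and 78.3, 94.9 and 74.0 CPM in PhenDC3 samples. Its groups were well apart, with a log2 fold change of 1.63 (SE 0.15, 3.09-fold, adjusted p = 0.000141).

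Cdkn1a, the gene of the cyclin-dependent kinase inhibitor p21 and the classical arrest target of p53, lies at chr17:29090979-29100722 on the plus strand. Its level was 30.8, 37.2 and 37.9 CPM in control and 78.0, 83.4 and 88.4 CPM in PhenDC3 samples, or 35.3 ± 3.91 against 83.3 ± 5.18 (SD, n = 3). All treated samples were above all controls. The log2 fold change of Cdkn1a was 1.24 (SE 0.12, 2.36-fold, adjusted p = 0.000170), the same fold to 3 digits as that of Mdm2. Per kb of exon Cdkn1a was at 17.3 CPM in control and 40.9 CPM in PhenDC3 samples, below Trp53 in both.

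The other arrest genes moved less, and not all upward. Ckap2, a cytoskeleton-associated spindle protein, was at 99.5, 85.0 and 98.4 CPM in control and 150, 144 and 149 CPM in PhenDC3 samples, a log2 fold change of 0.65 (SE 0.11, adjusted p = 0.00205). Zmat3, an RNA-binding zinc finger protein, was at 125, 125 and 164 CPM in control and 219, 163 and 218 CPM in PhenDC3 samples. For Zmat3 the highest control sample reached the lowest PhenDC3 sample, and the call (log2 fold change 0.54, SE 0.16, adjusted p = 0.0273) was lost without control replicate 1 or 2 or PhenDC3 replicate 1 or 3, with an adjusted p of up to 0.108.

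Gadd45a, a stress sensor that takes part in G2 arrest and DNA repair, fell instead. Its level was 37.0, 46.6 and 29.1 CPM in control and 22.8, 28.0 and 23.8 CPM in PhenDC3 samples, with only a narrow gap between the lowest control and the highest treated sample. The log2 fold change was -0.60 (SE 0.18, adjusted p = 0.0268). The gene E230016M11Rik on the opposite strand overlaps 19.4% of the exon length of Gadd45a. Reads there could be assigned wrongly or left out if the counting ignored strand. The fall was not called without normalisation factors (library size only), nor without control replicate 1 or 2 or PhenDC3 replicate 1 or 3, where its adjusted p was at most 0.103. Sfn, the gene of 14-3-3 sigma, a G2 checkpoint protein, had all PhenDC3 samples below the control but did not pass the threshold (log2 fold change -0.23, SE 0.11, adjusted p = 0.149).

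Of the apoptosis genes, the BH3-only and pore-forming genes of the mitochondrial pathway were not among those that rose. Bax, which forms pores in the mitochondrial outer membrane, was at 200, 232 and 194 CPM in control and 186, 199.7 and 171 CPM in PhenDC3 samples. Its groups overlapped, with a log2 fold change of -0.17 (SE 0.12, adjusted p = 0.288), and Bax was among the most expressed members per kb of exon (240 CPM in control). Bbc3, which encodes the BH3-only protein Puma, ranged from 20.2 to 34.0 CPM in control and from 26.3 to 28.2 CPM in PhenDC3 samples (log2 fold change -0.02, SE 0.18, adjusted p = 0.945).

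Pmaip1, which encodes the BH3-only protein Noxa, fell. Its level was 30.0, 31.2 and 25.1 CPM in control and 20.4, 23.3 and 19.7 CPM in PhenDC3 samples, without overlap between the groups. The log2 fold change was -0.44 (SE 0.13, adjusted p = 0.0278), and Pmaip1 lost its call in the same 5 alternatives as Gadd45a, with an adjusted p of up to 0.143.

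Other steps of the death pathways rose. Apaf1, the scaffold of the apoptosome that activates caspase-9, was at 37.2, 31.2 and 48.9 CPM in control and 92.1, 81.5 and 96.4 CPM in PhenDC3 samples. All treated samples were above all controls, with a log2 fold change of 1.20 (SE 0.17, 2.30-fold, adjusted p = 0.000841). Phlda3, which restrains Akt signalling, was at 21.2, 34.2 and 21.4 CPM in control and 59.0, 68.4 and 44.0 CPM in PhenDC3 samples (log2 fold change 1.16, SE 0.22, adjusted p = 0.00403). Control replicate 2 was the highest control and PhenDC3 replicate 2 the highest treated sample for Phlda3, and the groups did not overlap.

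The receptor genes of the group also rose where they could be tested. Eda2r, the X-linked ectodysplasin A2 receptor of the TNF receptor family, was at 62.0, 44.2 and 58.5 CPM in control and 115, 91.4 and 142 CPM in PhenDC3 samples, a log2 fold change of 1.08 (SE 0.18, 2.11-fold, adjusted p = 0.00236). Tnfrsf10b, the TRAIL death receptor, was at 43.6, 39.7 and 41.6 CPM in control and 56.7, 58.3 and 55.7 CPM in PhenDC3 samples. Its replicates were close together in both groups, so that a change of only 0.45 on the log2 scale (SE 0.10, 1.37-fold) had an adjusted p of 0.00814. Fas, another death receptor, was close to silent, with 1 to 4 counts in each control library and 4 to 10 in each PhenDC3 library, and was not tested.

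Perp, a desmosomal membrane protein that takes part in p53-dependent death, rose from a low level. It was at 9.45, 9.94 and 8.09 CPM in control and 13.2, 15.6 and 12.9 CPM in PhenDC3 samples (log2 fold change 0.60, SE 0.15, adjusted p = 0.0140), and without PhenDC3 replicate 2 its adjusted p was 0.0525. Ei24, an endoplasmic reticulum protein, had all PhenDC3 samples above the control but no call (log2 fold change 0.22, SE 0.11, adjusted p = 0.126). Aen, an exonuclease that acts in apoptosis, had overlapping groups (log2 fold change 0.10, SE 0.11, adjusted p = 0.519).

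**Figure D3:**
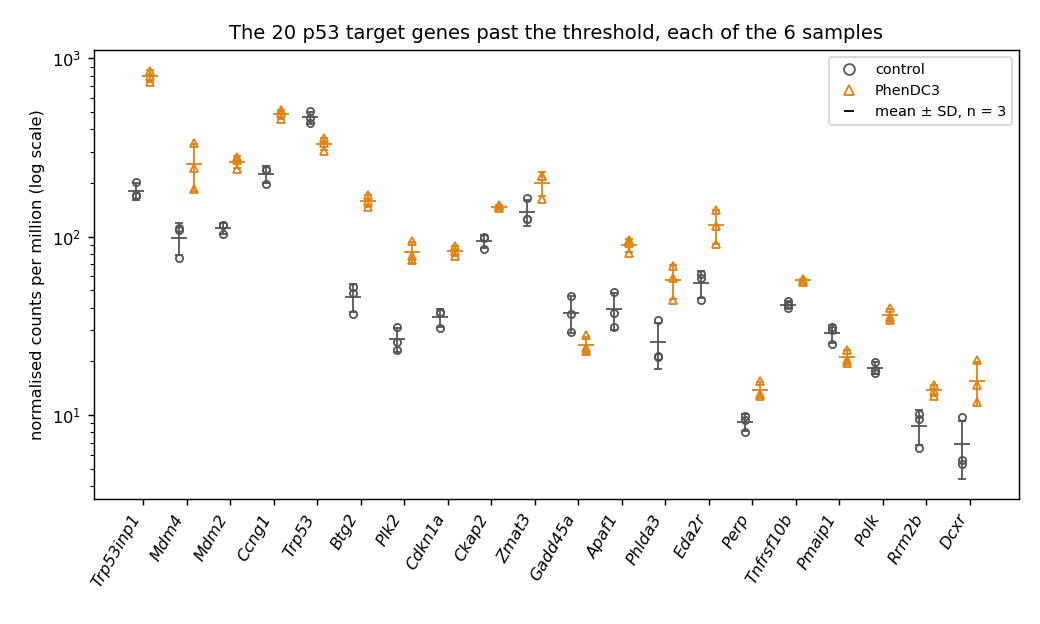
Normalised CPM (log scale) in each of the 6 RNA-seq samples for the 20 p53 target genes past the threshold, control as grey circles and PhenDC3 as orange triangles, with bars for the mean ± SD (n = 3). For each gene except Zmat3 the groups do not overlap, and Trp53, Gadd45a and Pmaip1 are the 3 genes that are lower in PhenDC3 samples.

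Among repair genes, a polymerase and a reductase subunit rose. Polk, the translesion DNA polymerase kappa, was at 19.9, 17.2 and 17.9 CPM in control and 35.3, 34.2 and 39.7 CPM in PhenDC3 samples. The groups were clearly apart, with a log2 fold change of 0.99 (SE 0.12, 1.98-fold, adjusted p = 0.000485). Rrm2b, the p53-inducible subunit of ribonucleotide reductase, was at 10.1, 6.52 and 9.56 CPM in control and 12.8, 13.6 and 14.8 CPM in PhenDC3 samples (log2 fold change 0.65, SE 0.18, adjusted p = 0.0221). The call of Rrm2b was lost without PhenDC3 replicate 1 or 3, with an adjusted p of up to 0.0751.

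The 3 nucleotide excision repair genes did not pass the threshold. Xpc, which recognises distorted DNA, had a log2 fold change of -0.01 (SE 0.12, adjusted p = 0.954), and Ddb2, which recognises ultraviolet lesions, had 0.21 (SE 0.22, adjusted p = 0.480). In both genes the groups overlapped, and 33.6% of the exon length of Ddb2 overlaps Acp2 on the opposite strand. For Ercc5, the endonuclease Xpg, all PhenDC3 samples (38.5 to 54.9 CPM) lay above all control samples (28.6 to 37.6 CPM), with a log2 fold change of 0.43 (SE 0.16, adjusted p = 0.0682).

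In the metabolic group Dcxr, which encodes dicarbonyl and L-xylulose reductase, was the only gene past the threshold. It was at 5.57, 9.71 and 5.32 CPM in control and 14.7, 20.3 and 11.8 CPM in PhenDC3 samples, so every treated sample was above every control despite the spread (log2 fold change 1.19, SE 0.28, adjusted p = 0.00977). The sestrins, which restrain mTORC1 and limit oxidative damage, did not pass the threshold, with log2 fold changes of 0.39 for Sesn1 (SE 0.20, adjusted p = 0.152) and 0.30 for Sesn2 (SE 0.21, adjusted p = 0.275). For Sesn2, control replicate 3 stood at 130 CPM against 76.2 and 78.4 CPM in the other controls, while PhenDC3 samples were at 102 to 126 CPM. Without control replicate 3 the change of Sesn2 was 0.59 (adjusted p = 0.00719). The stress cytokine gene Gdf15, with 11 to 27 counts in a library, and Tap1, a peptide transporter of antigen presentation, had log2 fold changes of 0.07 (SE 0.38) and -0.04 (SE 0.18) and were not called.

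The genes that act on p53 were looked up as well. Of 21 regulators looked up, 20 were tested, and 2 rose, 2 fell and 16 did not pass the threshold, with a median log2 fold change of -0.03, where 18.0% of all genes rose and 18.7% fell. The damage kinases Atm, Atr, Chek1 and Chek2 were among those not called, which concerns their mRNA and not their phosphorylation. The paper reports no effect of the same treatment on the expression or phosphorylation of CHK1, nor on the cell cycle profile. Trp73, which encodes the p53 relative p73, was at 2.90, 3.42 and 4.02 CPM in control and 11.4, 8.87 and 8.82 CPM in PhenDC3 samples, without overlap (log2 fold change 1.49, SE 0.20, adjusted p = 0.000679). Rchy1, the p53 ubiquitin ligase Pirh2, rose by 0.70 (SE 0.11, adjusted p = 0.00189). Rpl11, a ribosomal protein that can bind Mdm2, had a log2 fold change of -0.42 (SE 0.11, adjusted p = 0.0175), and Prkdc, the DNA-dependent protein kinase, -0.30 (SE 0.10, adjusted p = 0.0415).

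A list of 14 further p53 targets outside the members had 4 higher, 1 lower and 9 not past the threshold, with a median of 0.23. Its 5 calls of 14 genes are near the 36.8% called among all genes. The cytokine gene Lif went from 4.99, 5.56 and 5.79 CPM in control to 17.2, 15.6 and 18.7 CPM in PhenDC3 samples (log2 fold change 1.66, SE 0.15, adjusted p = 0.000121). Ephx1, an epoxide hydrolase, rose by 1.19 (SE 0.12, adjusted p = 0.000175) and Tigar, a fructose bisphosphatase that limits glycolysis, by 0.49 (SE 0.11, adjusted p = 0.00688). Cdip1, a proapoptotic gene, rose by 0.38 (SE 0.12, adjusted p = 0.0379), and the receptor kinase gene Epha2 had a log2 fold change of -0.46 (SE 0.13, adjusted p = 0.0201). LIF protein was in the medium of both conditions.

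Since PhenDC3 binds G4 DNA, the promoters of the members were searched for G4 motifs, at least 4 runs of at least 3 G separated by 1 to 7 bases on either strand. The window was the RefSeq promoter from 250 bp before to 50 bp after the TSS, available for 27 of the 35 members. A motif was present in 10 of these 27 (37.0%) and in 24.3% of 17906 genes with such a window, expressed or not. Of the 10 members, 4 rose, none fell and 6 did not pass the threshold, where 18.0% of all genes rose and 18.7% fell. Their median log2 fold change was 0.31. The 0.44 of all members tested also covers members without a window, so these medians are not compared. The motifs of the 4 that rose are shown with G runs in capitals, read on the strand that holds the G.
Btg2: GGGcGGGGcggagaGGGGcGGG
Eda2r: GGGtctaGGGaGGGaaGGG
Phlda3: GGGccccGGGGGGcGGGGctgcagtGGGG
Polk: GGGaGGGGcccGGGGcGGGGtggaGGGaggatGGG
The motif of Btg2 (chr1:134079249-134079270, minus strand) is on the strand of the gene, and those of Eda2r (chrX:97377388-97377406, plus strand), Phlda3 (chr1:135766018-135766046, minus strand) and Polk (chr13:96542667-96542701, plus strand) are on the other strand. They lie between 53 and 188 bp upstream of the TSS. Trp53inp1 and 7 other members had no entry for this window and are not in this count.

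The number of members with an SNS-seq peak near the TSS differed widely between replicates of the same condition. A peak lay within 2 kb of a TSS for 25, 24 and 11 of the 35 members in control replicates 1, 2 and 3, and for 26 and 14 in PhenDC3 replicates 1 and 2. Among all 23937 genes with a TSS the shares were 50.7%, 47.7% and 30.7% in control and 51.2% and 36.5% in PhenDC3 lists. Of the members they were 71.4%, 68.6% and 31.4%, and 74.3% and 40.0%. All genes here include those below the filter on low counts, which 34 of the 35 members passed. The paper reports that origins are enriched in gene regions, and the share among expressed genes alone was not computed. The lists with few peaks near members, control replicate 3 and PhenDC3 replicate 2, were also low for all genes. Peaks were present in all 5 lists for 10 members (Bbc3, Dcxr, Ddb2, Gadd45a, Gdf15, Mdm4, Polk, Ppm1d, Rrm2b and Tap1), a pattern of 19.4% of all genes, and in none for 6 (Aen, Ckap2, Eda2r, Ercc5, Fas and Gtse1), a pattern of 34.2% of all genes. No member had a peak in every control and no PhenDC3 list, a pattern of 1.11% of all genes.

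Trp53 and Ccng1 were the only members with a peak in both PhenDC3 lists and no control list, a pattern found for 2.20% of all genes. At Trp53 the peaks of PhenDC3 replicates 1 and 2 overlapped, at chr11:69580684-69580899 and chr11:69580704-69580923, downstream of the TSS, with 3.33-fold and 3.50-fold enrichment over the RNase-treated library. At Ccng1 the peak of PhenDC3 replicate 1 (chr11:40754879-40754991, 5.19-fold) covered the intronic p53 element printed above, while those of replicate 2 (chr11:40756126-40756339 with 5.65-fold and chr11:40756543-40756636 with 6.65-fold enrichment) lay upstream of the gene and did not overlap it. The 2 genes moved in opposite directions in RNA-seq, Trp53 down and Ccng1 up. A peak in 2 control lists and 1 PhenDC3 list was found for 11 members, a pattern of 8.17% of all genes. All 11 lacked a peak in control replicate 3, and all but Zmat3 lacked one in PhenDC3 replicate 2. Those lists were also low for all genes, so the pattern cannot be told apart from a difference between replicates. Of these 11, Mdm2, Cdkn1a, Trp53inp1, Apaf1, Phlda3 and Zmat3 rose, while Bax, Ei24, Sesn1, Sfn and Xpc did not pass the threshold. Of the 17 p53 elements found, between 0 and 4 lay inside a peak of any given list.

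**Figure D4:**
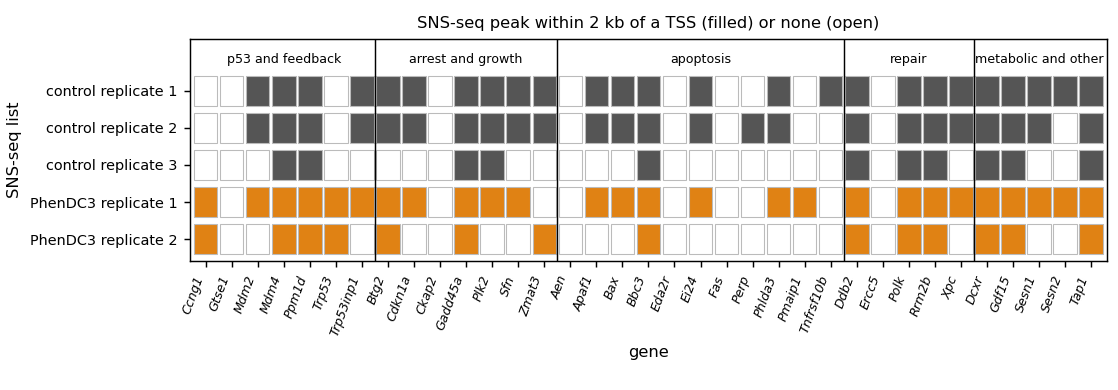
Presence (filled) or absence (open) of an SNS-seq peak within 2 kb of a TSS for each of the 35 p53 target genes (columns, by function) in each of the 5 peak lists (rows, control grey and PhenDC3 orange). The number of filled cells runs from 11 in control replicate 3 to 26 in PhenDC3 replicate 1, and Trp53 and Ccng1 are filled in both PhenDC3 rows alone.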

How the data were processed

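Per the labels and the study's methods, the authors mapped RNA-seq reads with TopHat2 (2.1.1) and Bowtie2 (2.2.9) and deposited raw HTSeq (0.6.1p1) counts per gene. The paper names a stranded library kit for RNA-seq, but annotation and strand setting of the counting are not given in the sources used here. For SNS-seq, the authors mapped to mm10, called peaks per sample with MACS2 (2.1.0), using that condition's RNase-treated library as control, and filtered them by overlap with SICER regions. The deposited lists give a fold enrichment (a ratio), −log10 of the p-value and −log10 of the q-value, but no read counts, so their depth is unknown. The fold enrichment is printed as deposited, and the −log10 p was used only to take the stronger part of a list. The authors' DESeq2 comparison table (fold changes and p-values) and normalised pseudo-counts were not used.

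The raw counts were tested with edgeR (4.0.16, R 4.3.3; filterByExpr, relative log expression normalisation, robust quasi-likelihood F test, two-sided) with Benjamini-Hochberg adjustment over all 13972 genes tested. CPM were scaled to the normalised library sizes. On simulated counts of this comparison (13808 genes), 14 of 67 genes changed 1.5-fold, 42 of 67 changed 2-fold and 53 of 66 changed 3-fold were called. The simulation changed only 200 genes, whereas 36.8% of all genes were called in the data. The adjusted p therefore sets another cutoff there, and these shares do not give the recovery in the data. TSS and exon lengths were taken from curated RefSeq transcripts of GRCm38.p6, and sequences from that genome. All 35 members are named. Values per sample are given for those past the threshold and for Bax, and genes of the lists of regulators and further targets are named where past the threshold. In those lists Cop1 and Tigar were matched as Rfwd2 and 9630033F20Rik. The members and lists were chosen with earlier results of these data known, and the motif patterns, the 2 kb window for p53 elements and the choice of elements shown were set after the values were seen. Alternatives covered normalisation, filter, test, replicate block, each replicate left out, distance to the TSS and peak strength. The removal of Rn45s and Lars2 was added after seeing the data.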

Additional observations from a re-analysis of the deposited data

How the results depend on the processing

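Of the 17 members that rose, 14 were called in each of the 12 RNA-seq alternatives, the exceptions being Zmat3, Rrm2b and Perp. Of the 3 that fell, Trp53 was called in each, and Gadd45a and Pmaip1 were not. With library size only, 3583 genes were higher and 1688 lower, 68.0% of the calls being higher against 49.0%, the median of all genes moved from 0.01 to 0.16, and of the p53 targets 20 were higher and 1 lower with a median of 0.59. With each replicate left out, genes higher numbered 1709 to 2689, genes lower 1623 to 2727 (both lowest without PhenDC3 replicate 1), p53 targets higher 15 to 20 and lower 1 to 3, the latter being 1 without control replicate 1 or 2 or PhenDC3 replicate 1 or 3. DESeq2 (1.42.0) called 2630 genes higher and 2756 lower, with 17 and 3 p53 targets.

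Log2 fold changes reversed only in genes without a call. With library size only, Bbc3 was at 0.13, Xpc at 0.15 and Tap1 at 0.12. With each replicate left out, Bbc3 ran from -0.21 to 0.15, Xpc from -0.078 to 0.078, Tap1 from -0.11 to 0.049, Gdf15 from -0.20 to 0.44 and Ddb2 from -0.062 to 0.35. The cause was not tested. With the replicate block, Bbc3 was at 0.011, 3797 genes were higher and 3692 lower, and 21 p53 targets were higher and 3 lower, the added ones being Ercc5, Sesn1, Sesn2 and Ei24. The labels do not say that the replicate numbers pair the samples. The deviations of same-numbered samples correlated at 0.0904, 0.544 and 0.405, each sample best with its own number. In the stronger part of each peak list, 7 members had a peak in control replicate 3 in place of 11. Gene counts limit Fas, which was not tested, and Gdf15, and the number of SNS-seq replicates limits any comparison of peaks.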
